A study of Homo sapiens with 4 samples.

Results

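The complement components and regulators examined here are 8 genes chosen by name as members of 1 pathway, out of 46660 gene identifiers in the deposited expression table. The choice was made with earlier results of these data known. Of the 8 genes, 5 encode secreted proteins (*C1R*, *C1S*, *C3*, *CFB* and *SERPING1*) and 3 encode regulators held on the cell surface (*CD46*, *CD55* and *CD59*). The comparison between these classes after knockdown of the ETS-family transcription factor FLI1 is the question addressed. RNA-seq libraries were made from U87MG and U251MG, established human glioblastoma cell lines, with 1 control library and 1 shFLI1 library in each line. The control cells carried the empty lentiviral vector, named pGreen in the treatment labels and shControl in the sample titles, and the shFLI1 cells carried the vector with shRNA against *FLI1*. For its shRNA work the paper describes lentiviral infection, puromycin selection and mixed stable cells in each group, not single clones. It does not state whether the sequenced cells, control or shFLI1, were prepared in this way. With 1 library per arm in each line no spread between replicates can be measured there, and the intervals below cover counting error only.

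Complement is a cascade of plasma proteins that mark and lyse cells. In the classical pathway the protease C1r activates C1s, which cleaves the next components, whereas in the alternative pathway factor B joins activated C3 to form the enzyme that cleaves more C3. Most circulating complement is made by the liver, but glial cells and tumour cells also make components, and nucleated cells carry surface regulators that protect them from their own complement.

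The summed counts ranged from 12229779 in U87MG control to 28891055 in U251MG shFLI1, and in both lines the shFLI1 cells were sequenced more deeply than the control cells. *FLI1* fell from 9.34 to 2.34 CPM (TMM-scaled counts relative to library size) in U87MG and from 12.1 to 3.71 CPM in U251MG, on 107, 52, 216 and 111 counts. Of the glial markers, *VIM*, which encodes the intermediate filament protein vimentin, was the most counted, at 3080, 2990, 6630 and 7000 CPM in U87MG control, U87MG shFLI1, U251MG control and U251MG shFLI1, while 1 of the 8 markers on that list, *OLIG2*, had at most 3 counts in every library. The list summed to 5780, 6880, 8370 and 9320 CPM in the same order, so the sum was higher in shFLI1 cells. Not every marker rose, since *EGFR* was lower in shFLI1 cells of both lines, at 152, 124, 145 and 137 CPM. *GFAP*, an intermediate filament gene of astrocytes, was called higher in both lines, from 634 to 1590 CPM in U87MG and from 20.4 to 93.8 CPM in U251MG, and the part of this shift in the results below was not tested.

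Letters upstream of the start site are shown for *CFB* and *C1R*, of the secreted members, and for *CD46* and *CD59*, of the surface regulators, because these genes moved differently after knockdown. The windows are the 250 bases before the annotated start in RefSeq (GRCh38.p14), 5′ to 3′ on the strand of the gene, and 5 of the 8 members had such a window in the table. Capitals mark matches, on either strand, to the letters GAAANNGAA (the core of the interferon-stimulated response element), TTCNNNGAA (the GAS element of STAT dimers) or CCGGAA (the core bound by ETS factors such as FLI1).
CFB, chr6:31945845-31946094, plus strand: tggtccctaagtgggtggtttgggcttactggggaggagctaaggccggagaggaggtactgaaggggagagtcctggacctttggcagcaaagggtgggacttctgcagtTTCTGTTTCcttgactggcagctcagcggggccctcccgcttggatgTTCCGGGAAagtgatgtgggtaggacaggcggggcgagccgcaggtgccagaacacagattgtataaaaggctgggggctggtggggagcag
C1R, chr12:7092446-7092695, minus strand: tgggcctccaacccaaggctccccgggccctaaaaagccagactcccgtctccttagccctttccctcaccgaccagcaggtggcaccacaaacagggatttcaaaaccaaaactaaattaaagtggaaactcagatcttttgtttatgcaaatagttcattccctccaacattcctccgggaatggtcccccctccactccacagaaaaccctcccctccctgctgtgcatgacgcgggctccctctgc
CD46, chr1:207751788-207752037, plus strand: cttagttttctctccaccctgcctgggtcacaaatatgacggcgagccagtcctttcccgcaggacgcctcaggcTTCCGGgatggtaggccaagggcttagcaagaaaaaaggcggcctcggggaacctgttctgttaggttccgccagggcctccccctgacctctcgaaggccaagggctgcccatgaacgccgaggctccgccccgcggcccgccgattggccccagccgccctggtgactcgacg
CD59, chr11:33736480-33736729, minus strand: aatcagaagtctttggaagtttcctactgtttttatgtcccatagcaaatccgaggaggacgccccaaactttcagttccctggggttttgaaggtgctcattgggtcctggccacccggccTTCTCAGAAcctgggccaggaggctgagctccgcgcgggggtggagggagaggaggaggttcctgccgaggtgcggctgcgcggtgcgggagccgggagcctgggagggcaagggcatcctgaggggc

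The *CFB* window held 1 match to each of the 3 sets of letters, and its GAS and ETS matches overlapped. The *C1R* window above held 0 matches, and the window of its second annotated start held 1 GAS match. *CD46* held 1 ETS match, *CD59* held 1 GAS match in the window above, and *CD55*, which is not shown, held 0. The overlapping window of another *CD59* start, at 33736424-33736673, held 1 GAS match with the same letters, TTCTCAGAA. The windows of further *CD59* starts, at 33722728-33722977 and 33722950-33723199, held 0 matches. Among 34943 windows of the same length, 6.87% held the interferon-response letters, 6.56% the GAS letters and 14.5% the ETS core. The matches describe the letters only and say nothing of binding.

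All 5 secreted members were lower after knockdown in every line where they could be tested, and the 3 surface regulators were not called in either line. Genes reaching at least 10 counts in either library of a line were tested there, and a call required both a change above 2-fold and p below 0.05 in an exact binomial test of the reads (two-sided). In U87MG 4 of 7 tested members were called lower, against 4.33% of 17355 genes, and 0 were called higher, against 7.48%. In U251MG 5 of 8 were called lower, against 4.06% of 18222 genes, and 0 were called higher, against 4.44%. *C3* in U87MG and *SERPING1* in U251MG passed the filter only through the control library, where they were high, and without them 3 of 6 members in U87MG and 4 of 7 in U251MG were called lower. Of the 7 members tested in both lines 4 were called lower in both, against 1.45% of the 16384 genes tested in both. These 4 were all secreted members, and *C3* was 1 of them. Scaling to total counts changed the balance of calls over all genes in U87MG, from 1299 higher and 751 lower to 1715 and 585.

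**Figure D1:**
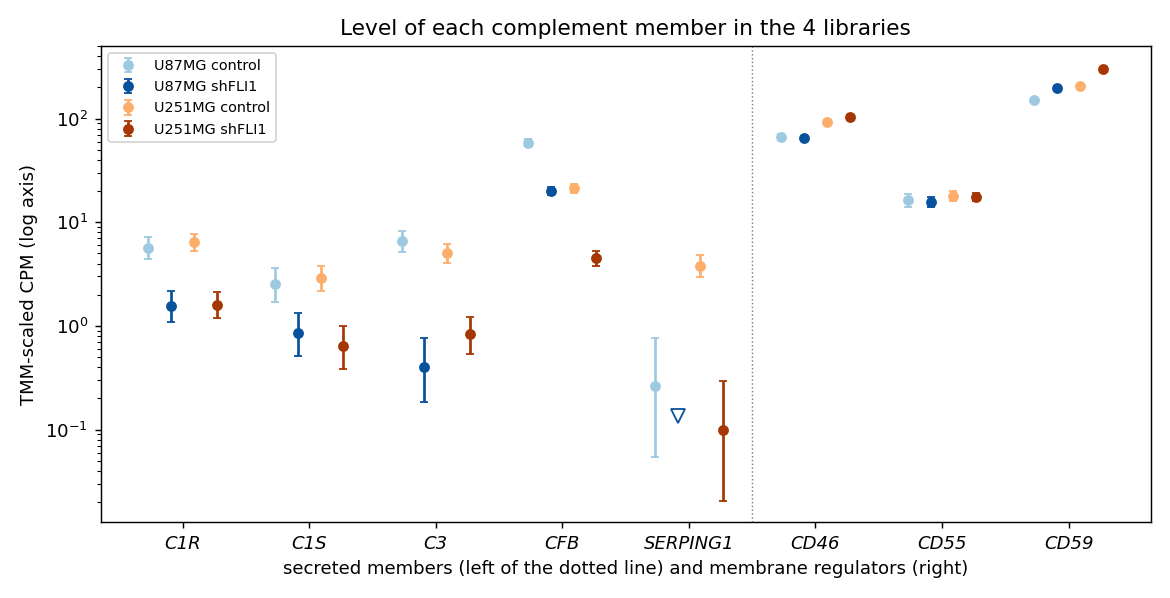
TMM-scaled CPM (log axis) of the 8 members in the 4 libraries; bars are 95% Poisson intervals of the counts and the open triangle marks the level of 3 counts for a library with 0 counts. Each secreted member with counts above 3 is lower in the shFLI1 library of its line, and the libraries of *CD46* and *CD55* within a line lie close together.

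*C1R* and *C1S*, which encode the paired proteases of the first component, lie 9.2 kb apart on chromosome 12 with 0 protein-coding genes between them. *C1R* (Entrez gene 715, GRCh38 chromosome 12, 7080219 to 7092445) had 5.68 CPM in U87MG control, 1.57 in U87MG shFLI1, 6.45 in U251MG control and 1.60 in U251MG shFLI1, on 65, 35, 115 and 48 counts. Both controls lay above both shFLI1 libraries. The log2 fold changes were -1.79 (-2.49 to -1.24, here and below the 95% Clopper-Pearson interval) in U87MG and -1.94 (-2.53 to -1.51) in U251MG. *C1S* (Entrez gene 716, chromosome 12, 7060718 to 7071032) had 2.53, 0.854, 2.92 and 0.634 CPM in the same order, on only 29, 19, 52 and 19 counts. The controls were again the higher libraries, with a log2 fold change of -1.47 in U87MG (-2.48 to -0.68) and -2.04 in U251MG (-3.04 to -1.42).

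*C3* (Entrez gene 718, chromosome 19, 6677704 to 6720650), the component on which the pathways converge, fell further than *C1R*, *C1S* and *CFB* in U87MG. It had 6.55 CPM in U87MG control and 0.405 in U87MG shFLI1, on 75 and 9 counts, and 5.05 and 0.835 CPM in U251MG, on 90 and 25 counts. It passed the filter in U87MG only through its control library. With the prior count of 2 the log2 fold change was -3.72 in U87MG (-5.20 to -3.02) and -2.46 in U251MG (-3.30 to -1.94). Without a prior count, as in the intervals, the log2 ratios were -4.02 and -2.60, which left 6.18% and 16.5% of the control levels. By size of decrease it ranked 41 of 17355 tested genes in U87MG and 169 of 18222 in U251MG.

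*CFB* (Entrez gene 629, chromosome 6, 31946095 to 31952084), which encodes factor B, had the most counts of the secreted members. It had 58.7 CPM in U87MG control, 20.0 in U87MG shFLI1, 21.4 in U251MG control and 4.47 in U251MG shFLI1, on 672, 444, 381 and 134 counts. The level in U87MG cells after knockdown thus lay near that in U251MG control cells. The log2 fold change was -1.55 in U87MG (-1.73 to -1.38) and -2.23 in U251MG (-2.55 to -1.97). *C2*, its paralog for the classical pathway, ends 422 bases upstream of it, and reads near that boundary cannot be assigned with certainty.

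*SERPING1* (Entrez gene 710, chromosome 11, 57597685 to 57614848) encodes C1 inhibitor, a secreted serpin that inactivates C1r and C1s. In U87MG the control library held 3 counts and the shFLI1 library 0, both at or under the limit of 3 counts (0.262 CPM in the control library), so no fold between them is given. The U251MG control library held 68 counts (3.81 CPM), whereas the shFLI1 library held 3 (0.10 CPM). The 2 libraries of U251MG were far apart, with a log2 ratio of -5.25 without a prior count and a counting interval of -7.56 to -3.64. With the prior count of 2 the log2 fold change was -4.30, a value that depends on that prior, and the gene passed the filter only through its control library.

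None of the 3 surface regulators reached the 2-fold threshold in either line. *CD46* (Entrez gene 4179, chromosome 1, 207752038 to 207795516) encodes a cofactor for the cleavage of deposited C3b and C4b. It had 66.6, 65.1, 91.8 and 104 CPM in U87MG control, U87MG shFLI1, U251MG control and U251MG shFLI1. The log2 fold change was -0.03 in U87MG (-0.16 to 0.10) and 0.18 in U251MG (0.09 to 0.27). *CD55* (Entrez gene 1604, chromosome 1, 207321678 to 207360966) encodes a factor that speeds the decay of the C3-cleaving enzymes. It had 16.4, 15.7, 17.8 and 17.5 CPM, the narrowest range of the 8 members, with log2 fold changes of -0.06 (-0.32 to 0.20) and -0.03 (-0.23 to 0.18). The small negative values of *CD46* in U87MG and of *CD55* turned positive with total-count scaling, at 0.13 for *CD46* in U87MG and at 0.10 in U87MG and 0.04 in U251MG for *CD55*.

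*CD59* (Entrez gene 966, chromosome 11, 33703010 to 33736479), whose product blocks assembly of the membrane attack complex, was the only one of the 8 members whose counting interval lay above 0 in both lines. It had 152 and 199 CPM in U87MG control and shFLI1 and 206 and 304 CPM in U251MG, on 1739, 4437, 3679 and 9118 counts. The log2 fold change was 0.39 in U87MG (0.31 to 0.47) and 0.56 in U251MG (0.51 to 0.62), or 1.31-fold and 1.48-fold, under the 2-fold threshold in both. Total-count scaling, which moved the median of all tested genes up by 0.16 in U87MG and by 0.07 in U251MG, gave 0.55 and 0.64.

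**Figure D2:**
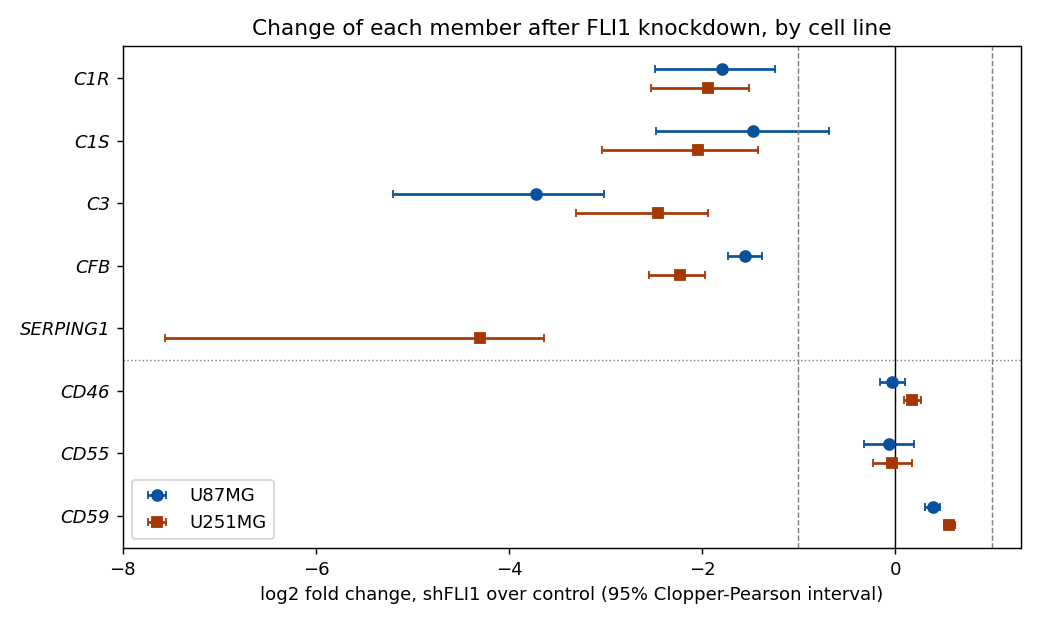
Log2 fold change (shFLI1 over control) of each member with its 95% Clopper-Pearson interval, by cell line; dashed lines mark 2-fold and *SERPING1* in U87MG is not drawn. All secreted members drawn lie left of the lower 2-fold line, and the surface regulators lie between the lines.

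Set against each other, the secreted and the surface members separated in both lines. The median log2 fold change of the secreted members was -1.67 in U87MG (4 tested, range -3.72 to -1.47) and -2.23 in U251MG (5 tested, range -4.30 to -1.94). The lowest values were those of *C3* in U87MG and *SERPING1* in U251MG, which passed the filter only through the control library. Without them the secreted members ranged from -1.79 to -1.47 in U87MG and from -2.46 to -1.94 in U251MG. The -4.30 of *SERPING1* also depends on the prior count. For the surface regulators the median was -0.03 in U87MG (range -0.06 to 0.39) and 0.18 in U251MG (range -0.03 to 0.56), and for all tested genes 0.06 and 0.04. The secreted median lay below the surface median, with a difference of -1.64 on the log2 scale in U87MG and -2.41 in U251MG. Genes are not replicates of a condition, so this difference is a description without a test. It covers the listed members only and not secreted complement genes in general. *C4A* and *CFI*, whose products are also secreted, were not called in either line. *C2*, another gene of a secreted component, was called lower in U251MG on few counts.

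The same contrast was seen in summed levels. The 5 secreted members together had 844 counts (73.7 CPM) in U87MG control and 507 (22.8 CPM) in U87MG shFLI1, and 706 (39.6 CPM) and 229 (7.65 CPM) in U251MG. *CFB* dominated these sums, and without it the log2 ratio of the summed counts was -2.41 in U87MG (-2.85 to -1.98) and -2.52 in U251MG (-2.87 to -2.19), against -1.69 and -2.37 with it. The sums without *CFB* rest in part on members that passed the filter only through the control library. In U87MG *C3* held 75 of 172 control counts and 9 of 63 shFLI1 counts. In U251MG *SERPING1* held 68 of 325 and 3 of 95. The summed counts of the surface regulators, of which *CD59* held the most, had a log2 ratio of 0.26 in U87MG (0.19 to 0.32) and 0.43 in U251MG (0.39 to 0.48).

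Levels between genes were compared per length, with the authors' FPKM (fragments scaled to transcript length and to the mapped reads of the library) summed over the RNAs of each gene. In U87MG control *CFB* was the highest member at 24.81 FPKM, overlapping *CD46* at 22.49 when the counting error is applied, followed by *CD59* at 19.42 and *CD55* at 10.53. The other secreted members were lower, with *C3* at 3.19, *C1R* at 2.38 and *C1S* at 1.80 FPKM, neighbours whose counting intervals overlapped, and *SERPING1* last at 0.16. Of the *C3* value, 1.89 FPKM came from 1 short RNA with an estimated 2.23 counts. Of the *C1S* value, 1.01 FPKM came from 1 RNA with an estimated 4.66 counts. The intervals here use the total counts of each gene and do not cover the error of such parts. In U251MG control the order began with *CD46* at 31.83, *CD59* at 28.10 and *CD55* at 15.85, followed by *CFB* at 9.51, and *SERPING1* at 2.40 was not separable from *C1R* at 3.31. After knockdown *CD59* was highest in both lines, at 29.17 FPKM in U87MG and 44.67 in U251MG, and *CFB* had dropped below *CD55* in U87MG, at 9.41 against 13.95. The summed FPKM of the surface regulators was 1.62 times that of the secreted members in U87MG control and 5.94 times in U87MG shFLI1, and 4.25 and 26.3 times in U251MG.

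**Figure D3:**
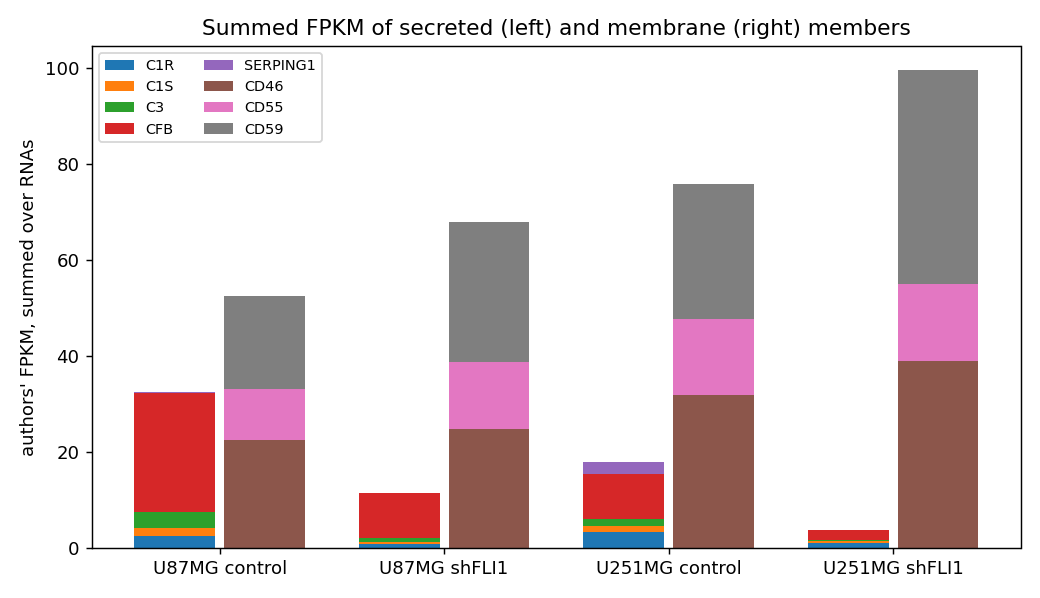
Authors' FPKM of the members, stacked, with the secreted members in the left bar and the surface regulators in the right bar of each library. The secreted bar falls from 32.34 to 11.41 in U87MG and from 17.82 to 3.78 in U251MG, and the surface bar is the taller in all 4 libraries.

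When all 4 libraries were fitted together and cell line was the blocking factor, edgeR's quasi-likelihood test with Benjamini-Hochberg adjustment found 3 of 7 tested members lower, against 2.14% of 16649 genes, and 0 higher, against 0.919%. Over all genes this test called 153 higher and 356 lower, and 166 and 198 after scaling to total counts, which also left 3 members called. The cell lines are the only replicates in this test, which has 1 residual degree of freedom. *CFB* had a shared log2 fold change of -1.90 (edgeR adjusted p = 0.00203), *C3* one of -3.21 (adjusted p = 0.00802) and *C1R* one of -1.95 (adjusted p = 0.0154), each lower in 2 of 2 lines. *C1S* had a shared log2 fold change of -1.90 and did not pass (edgeR adjusted p = 0.0629), and *SERPING1* had too few counts to be tested. The surface regulators did not pass either, with edgeR adjusted p = 0.161 for *CD59* (0.46, unadjusted p = 0.0135), 0.884 for *CD46* (0.06) and 0.904 for *CD55* (-0.06). DESeq2 in place of edgeR also called 3 members lower, beside 320 of the 13421 genes that it gave an adjusted p. The DESeq2 adjusted p of *C1S* was 0.310, within a range of 0.00133 to 0.860 over the alternatives. Without the cell line block edgeR called 0 members, with 3 at an unadjusted p below 0.05, and it called 0 of all 16649 genes, with 725 at an unadjusted p below 0.05.

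The lines differed in how far some members moved, judged by counting error alone. The log2 ratios compared here were taken without a prior count, so they can differ from the log2 fold changes above. The log2 ratio of *C3* was 1.42 higher in U251MG than in U87MG (0.24 to 2.61), a smaller fall, whereas that of *CFB* was 0.70 lower in U251MG (difference -0.70, -1.03 to -0.37), a larger fall. *CD59* and *CD46* were slightly more positive in U251MG, by 0.17 (0.07 to 0.26) and 0.21 (0.06 to 0.37). For *C1R*, *C1S* and *CD55* the interval of the difference included 0. The controls already differed for *CFB*, lower in U251MG with a log2 ratio of -1.46 (-1.64 to -1.27), and for *SERPING1*, higher in U251MG by 3.86 (2.26 to 6.18) on 3 against 68 counts. *CD46* and *CD59* were also higher in U251MG control cells, by 0.46 (0.34 to 0.59) and 0.44 (0.36 to 0.53). Control levels of *C1R*, *C1S*, *C3* and *CD55* did not separate the lines beyond counting error.

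The table assigns the counts of each member to named RNAs, and these splits are estimates. *CFB* counts lay on copies of 1 RNA, with 99.6% of the gene's counts in U87MG control on the copy named rna-NM_001710.6-6. *C1R* counts were divided equally between NM_001733 and a second copy of it, 32.5 each in U87MG control. *CD59* varied least of the surface regulators in its split, with NM_000611 taking 72.0%, 69.0%, 65.8% and 70.0% of its counts in U87MG control, U87MG shFLI1, U251MG control and U251MG shFLI1. The split of *CD55* was less even, since NM_000574 took 39.2% in U87MG control, 0.8% in U87MG shFLI1, 0.0% in U251MG control and 8.8% in U251MG shFLI1, while the gene's sum barely moved. For *CD46*, NM_172353 took 55.0% in U87MG control and between 34.7% and 36.2% in the other libraries.

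**Figure D4:**
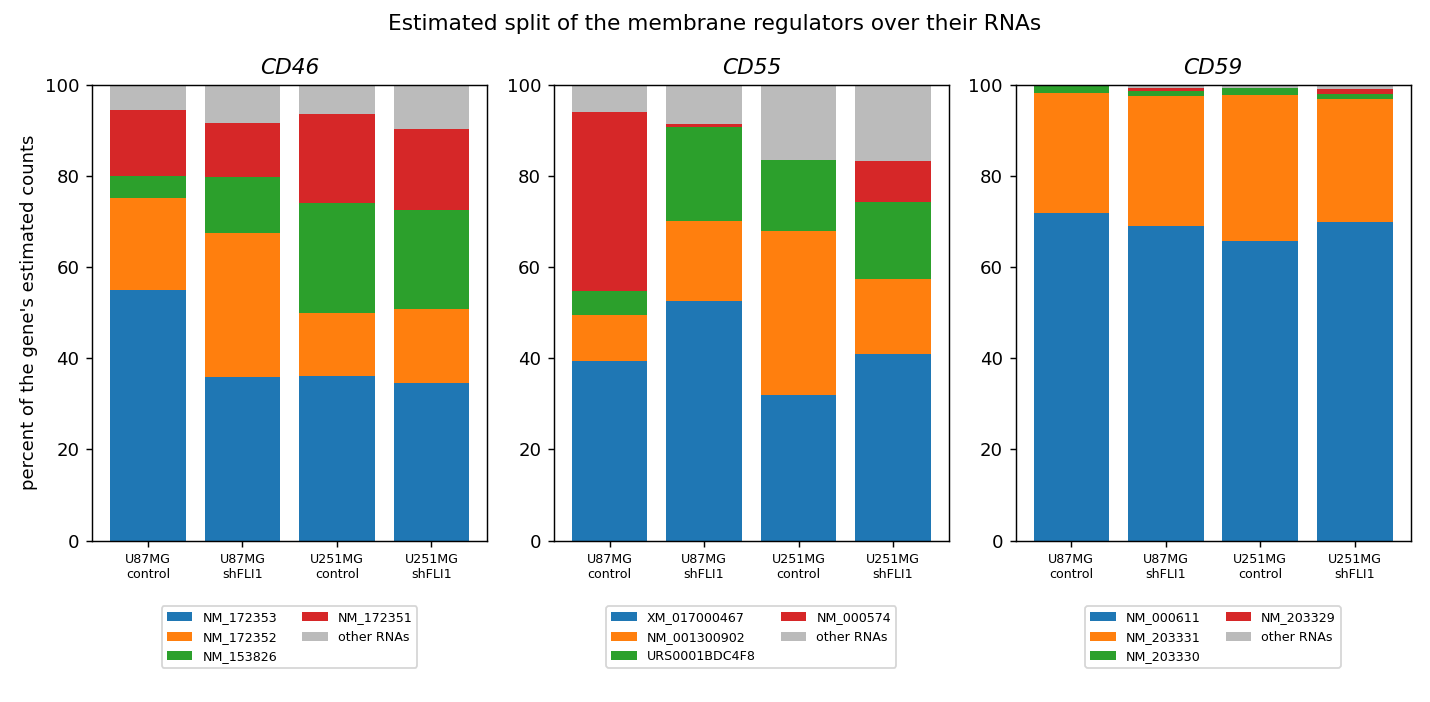
Percent of the estimated counts of *CD46*, *CD55* and *CD59* on their 4 most counted RNAs and on all others, in each library. The bars of *CD59* are alike in all 4 libraries, whereas the NM_000574 segment of *CD55* is large in U87MG control only.

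Of 49 other complement genes on a list, 31 were matched in the table and 13 had at least 10 counts in 1 library, and the remainder were not analysed here. In U87MG 0 of 10 tested were called lower, against 4.33% of all tested genes, and 1 higher, against 7.48%. In U251MG 2 of 13 were lower, against 4.06%, and 0 higher, against 4.44%. In the shared test edgeR called 0 of these 11 tested genes, with 0 at an unadjusted p below 0.05, and DESeq2 called 0. These counts cover the genes reported here and not the whole pathway.

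Most of the other well-counted complement genes were not called in either line. *C1QBP*, a multifunctional protein that binds C1q, had log2 fold changes of 0.37 and 0.27 in U87MG and U251MG, and *CFI*, the protease that cleaves C3b, had 0.04 and 0.53. *C4A*, whose reads can be shared with its near-identical copy *C4B*, had -0.48 and -0.12. The calls in single lines rested on few counts. *C2* was called lower in U251MG on 11 and 2 counts (log2 fold change -2.12, -6.42 to -1.01), as was *C3AR1*, the receptor for the C3a fragment, on 13 and 3 counts (-2.06, -5.32 to -1.0). *SUSD4*, a membrane complement inhibitor, was called higher in U87MG on 4 and 46 counts (2.28, 1.11 to 4.50) and had 57 and 103 counts in U251MG (0.10, -0.38 to 0.60).

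**Figure D5:**
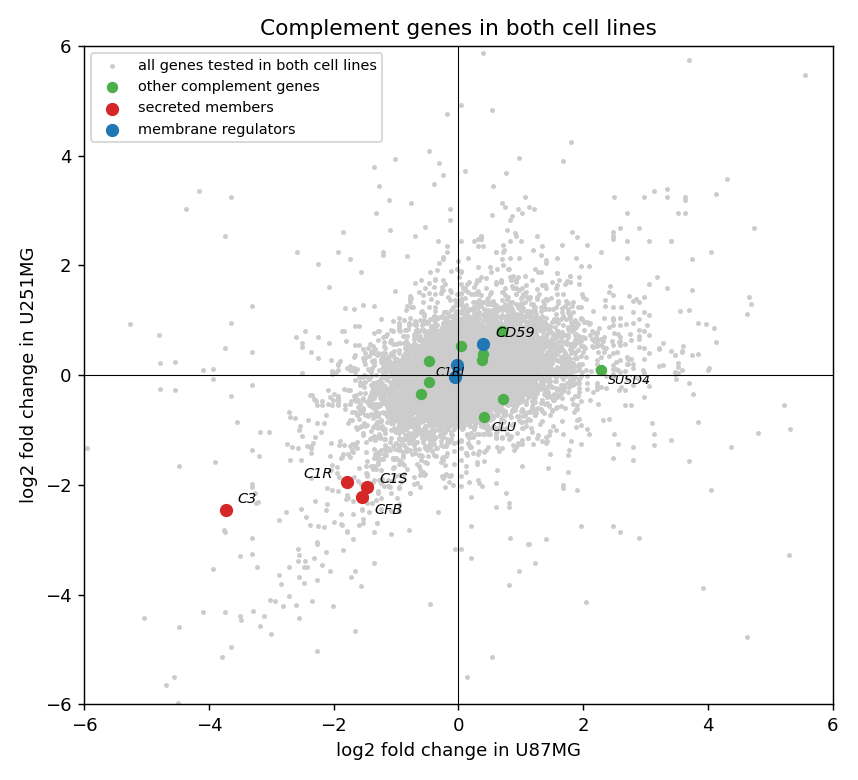
Log2 fold change in U87MG and in U251MG of the 16384 genes tested in both lines, of which 5 lie outside the axes; red, blue and green points are secreted members, surface regulators and other complement genes. The secreted members lie in the lower left, and the surface regulators lie near the centre.

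The 5 genes whose pair of log2 fold changes lay closest to the secreted medians (-1.67 and -2.23), among 10968 genes with a symbol and at least 100 counts in 1 library of each line, were *HELZ2*, *IFI44*, *TRANK1*, *SP110* and *BTN3A2*. Their Euclidean distances were 0.06, 0.10, 0.13, 0.15 and 0.16, over 2 fold changes from 4 libraries.

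Markers of other cell types were measured beside these changes, since complement is also made by macrophages and hepatocytes. In bulk RNA, fewer cells of a type and less RNA per cell cannot be told apart. The summed level of 7 microglia or macrophage markers was 5.50 and 1.48 CPM in U87MG control and shFLI1 and 10.7 and 3.01 CPM in U251MG, lower after knockdown in both. *CD68*, a lysosomal protein that is not exclusive to macrophages, made up most of it in the controls, at 4.10, 0.539, 9.14 and 0.468 CPM in the same order, while 3 of the 7, *ITGAM*, *TYROBP* and *CX3CR1*, had at most 3 counts in every library. Without *CD68* the other 6 markers summed to 1.40 and 0.944 CPM in U87MG and to 1.51 and 2.54 CPM in U251MG, so the lower sum in U251MG came from *CD68* alone. The part of these markers in the result was not tested. All 4 hepatocyte markers had at most 3 counts in every library. The 4 endothelial markers, led by *KDR* at 10.3, 4.90, 6.84 and 13.7 CPM, summed to 16.0 and 8.05 CPM in U87MG and to 7.68 and 14.7 CPM in U251MG.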

How the data were processed

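Poly-A mRNA libraries of U87MG and U251MG cells were sequenced, 1 control and 1 shFLI1 library in each line. The authors aligned reads to GRCh38 (the build named in the labels is GRCh38.p13) by HISAT2, and StringTie gave them FPKM. The deposited table gives an estimated count and an FPKM for each of 185042 linear RNAs and counts for 31346 circular RNAs, which were not used; the tool behind the counts and strandedness are not given in the sources used here. Another 10 columns of values were not used.

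Estimated counts of linear RNAs were summed over Entrez gene identifiers and rounded to whole numbers (total 12229779 to 28891055 per library). Counts were scaled by TMM (edgeR 4.0.16, R 4.3.3; Python 3.11.15, scipy 1.17.1), with a prior count of 2. A call needed a change above 2-fold and p below 0.05 in an exact binomial test (two-sided) in genes reaching 10 counts in either library; the test compares 2 libraries, not conditions. Intervals are 95% Clopper-Pearson, Poisson for levels, and normal for differences between lines. The prior count was not used for intervals, percentages of control or differences of members between lines. Because PCR duplicates are not separate molecules, intervals and the limit of 3 counts cover counting error only. The shared test was edgeR's quasi-likelihood test with cell line as blocking factor and Benjamini-Hochberg adjustment over all tested genes; DESeq2 1.42.0 was an alternative. Upstream letters are from RefSeq (GRCh38.p14), with windows for 5 of the 8 members.

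Members, gene lists, motifs and tests were chosen with earlier results of these data known. Named genes were *FLI1*, the members, other complement genes that were called or among the 5 most counted, the most counted marker of each cell type and the 5 genes nearest to the secreted medians. *OLIG2*, *GFAP*, *EGFR*, *ITGAM*, *TYROBP* and *CX3CR1* were named after their values were seen. Of the list of other complement genes, 1 gene is not reported here, and the counts over that list leave it out. On simulated counts with 200 changed genes the read test recovered 100% in U87MG (17066 genes, 168 false calls) and in U251MG (17958 genes, 153 false calls), and edgeR recovered 100% (17066 genes, 24 false calls). The simulated counts had counting error only, with no spread between replicates, and only well-counted genes were changed, by large folds. High recovery was therefore built in, and it does not cover members on few counts, such as *C1S*, *C3* and *SERPING1*.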

Additional observations from a re-analysis of the deposited data

Results flagged for a closer look

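On TMM-scaled counts, a pair of complement genes moved in opposite directions in the cell lines, with both counting intervals clear of 0. *CLU*, which encodes clusterin, an inhibitor of the terminal complex, had 104 and 138 CPM in U87MG control and shFLI1 (log2 fold change 0.41, 0.32 to 0.51) and 152 and 90.1 CPM in U251MG (-0.76, -0.83 to -0.68), a difference of -1.17 between the lines. *C1RL*, a protease related to C1r that lies 2.1 kb from *C1R*, had 14.0 and 9.98 CPM in U87MG (-0.48, -0.79 to -0.18) and 15.0 and 17.9 CPM in U251MG (0.25, 0.04 to 0.47), a difference of 0.73. In the authors' FPKM *CLU* kept its opposite directions, at 39.27 and 58.12 in U87MG control and shFLI1 and 60.61 and 37.66 in U251MG. *C1RL* did not, at 4.29 and 4.37 in U87MG and 5.46 and 7.72 in U251MG. Neither gene changed by 2-fold in either line, and with 1 library per arm the difference between the lines was not tested.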

How the results depend on the processing

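Calls of secreted members depended on the scale and on the filter for low counts. When FPKM replaced counts, on log2(value + 1), 2 members were called in U87MG and 3 in U251MG, against 4 and 5 with counts. Over all tested genes that scale called 306 of 17355 lower in U87MG and 300 of 18222 in U251MG. The secreted medians were then -1.09 and -1.11, the surface medians 0.37 and 0.28, and the difference between the medians in U251MG was -1.40. With a pseudocount of 0.1 the surface medians were 0.40 and 0.29. With at least 100 counts in 1 library, 1 member in U87MG and 2 in U251MG were called, of 4 and 5 tested, since fewer members were tested. Over all genes that filter left 265 of 11380 called lower in U87MG and 265 of 12129 in U251MG. In the shared test 1 member passed with at least 100 counts in every library (4 tested), beside 222 of 9772 genes called lower. With at least 1 count in any library 5 passed, beside 737 of 43576 genes called lower, and *C1S* had an edgeR adjusted p of 0.00133. Without the cell line block 0 passed, and *C1R*, *C3* and *CFB* had edgeR adjusted p values of 0.677, 0.662 and 1.00. Over all alternatives these ranged from 2.86e-07 to 0.677 for *C1R*, from 2.76e-15 to 0.662 for *C3*, from 7.51e-20 to 1.00 for *CFB* and from 0.00133 to 0.860 for *C1S*. The cause of the differences by scale and block was not tested.

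Small values that changed sign or came to 0.00 were all of uncalled surface regulators. *CD46* in U87MG was 0.13 with total counts and 0.13 on both FPKM scales. *CD55* was 0.10 with total counts, 0.37 and 0.40 with FPKM and 0.35 for its most counted RNA in U87MG, and 0.04, 0.00, 0.00 and 0.32 in U251MG; its shared value was 0.07 with total counts. Using the most counted RNA, and TMM factors from all genes, were alternatives chosen after seeing the data. Of 160 values of single members under alternatives, 140 kept their direction and side of the threshold, 7 lost and 1 gained a call and 12 changed sign or came to 0.00. The control and shFLI1 libraries of a cell line were paired only through the cell line block of the shared test, since each group has 1 library. Low counts limit *C1S*, *C3* and *SERPING1* most.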
